A study of Homo sapiens with 28 samples.

Results

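A set of 9 genes that encode leukocyte integrin subunits and adhesion molecules was followed through 28 RNA-seq libraries of 2 human leukemia cell lines in which the splicing factor MBNL1 was knocked down. The genes were ITGAM, ITGAX, ITGAL, ITGB2, ITGA4, ITGB1, CD44, SELPLG and CEACAM4. They were taken from a list of names, chosen with earlier results of these data known and matched by Ensembl gene identifier. They make up 9 of the 22391 genes with an expression value. All splicing events under these names were included, 74 of 100814.

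MOLM13 and MV4;11 are acute myeloid leukemia lines that carry a rearranged MLL gene. Each was transduced with a lentiviral hairpin against MBNL1 (sh64 or sh65) or with a non-targeting hairpin (shNT). The study's methods give pLKO.1-Puro hairpins, with puromycin for 72 h, and cell sorting for constructs with a fluorescent marker. They do not state which selection these libraries had. The 9 groups were MOLM13 with sh64 at day 4 (3 libraries) and its shNT set (3), MOLM13 with sh65 (4) and a second shNT set (3, called a, b and c here), MV4;11 with sh64 (3), sh65 (3) and shNT (3), and MOLM13 with sh64 (3) and shNT (3) at day 12. The study's methods state other library numbers for some of these groups, and the labels were followed. No source used here states the day of harvest of the sh65 and MV4;11 cells. Both hairpins in MV4;11 share the same 3 shNT libraries, so these comparisons are not independent. Day 12 was sequenced on another instrument than the rest, so day and sequencing run cannot be told apart. Only the day-12 libraries are described as biological triplicates; elsewhere p-values measure the spread between libraries, which may be technical. Expression is given in RPKM, reads scaled to transcript length and to the reads of the library, which allows comparison between genes.

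Integrins are pairs of an alpha and a beta chain. On leukocytes ITGB2 (CD18) pairs with ITGAL (CD11a) to form LFA-1, with ITGAM (CD11b) to form Mac-1, and with ITGAX (CD11c), and these receptors bind ICAM molecules and complement fragments. ITGA4 (CD49d) pairs with ITGB1 (CD29) to form VLA-4, which holds blood progenitors and leukemia cells to VCAM-1 and fibronectin in the marrow. CD44 is the hyaluronan receptor, SELPLG (PSGL-1) is the ligand of P-selectin, and CEACAM4 is a granulocyte receptor with a phagocytic signaling motif. CD11b and CD11c are commonly used as surface markers of myeloid maturation.

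CD44 RNA comes in a standard form, in which the constant exons on either side of the variable exons are joined directly, and in variant forms that keep one or more variable exons. Both forms end in the same constant exon, so the read across the junction tells them apart. The pair of junctions is shown because it carried the only splicing difference among these genes that was called. In each line below, from GRCh37 (hg19), plus strand, the capitals mark the shared exon that starts at chr11:35236399.
CD44 standard junction, from the constant exon ending at chr11:35211612: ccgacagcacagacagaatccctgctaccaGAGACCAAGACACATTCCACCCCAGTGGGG
CD44 last variable junction, from the variable exon at chr11:35232793-35232996: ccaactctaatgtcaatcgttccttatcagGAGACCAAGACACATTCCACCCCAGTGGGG
The standard junction spans 24786 bases and skips every variable exon, and the last variable junction spans 3402 bases.

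MBNL proteins bind RNA at YGCY motifs, where Y is C or T. The last variable exon of CD44, an annotated exon of 204 bases, held 0 matches on the transcribed strand, where CGCC or TGCC and likewise CGCT or TGCT counted and overlapping matches were allowed. Of 716 other exons of that length 93.0% held at least 1, with a median of 3.0. The first 250 bases of the following intron held 3 matches, and 60.3% of the windows after those other exons held at least as many. The last 250 bases of the intron before held 1, and 94.3% of the windows before the other exons held at least 1. These are letter matches only.

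The 2 alpha chains ITGAL and ITGAM each had a pair of acceptor sites 3 bases apart, with CAG between them, and both sites were used in these cells. They are shown with the 3 bases in capitals, on the plus strand of GRCh37.
ITGAL acceptor pair, chr16:30516545-30516587: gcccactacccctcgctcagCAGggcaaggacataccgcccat
ITGAM acceptor pair, chr16:31309043-31309085: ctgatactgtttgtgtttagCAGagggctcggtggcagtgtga

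Libraries within a group were not equally alike. Over 6267 genes the SD of log2 differences between 2 libraries of a group was 0.085 to 0.118 at day 12, 0.118 to 0.219 in the MV4;11 hairpin groups and up to 0.737 and 0.735 in the day-4 sh64 and shNT groups, where library 3 stood apart in both. Library a of the second MOLM13 shNT set (up to 0.54) and MV4;11 shNT library 3 (up to 0.532) also stood apart, and the 4 sh65 MOLM13 libraries differed by up to 0.438. Low RPKM values fell within 0.01 of a whole read, which gave a 3.57-fold range of relative depth. MBNL1 was at 14.4% of shNT with sh64 at day 4, 67.3% with sh65 in MOLM13, 16.6% with sh64 and 53.3% with sh65 in MV4;11, and 16.7% with sh64 at day 12. All 6 markers fixed for MLL-fusion myeloid leukemia reached at least 1 RPKM in some library. FLT3 was the highest at 65.4 to 274 RPKM and ANPEP the lowest at 0.0134 to 4.02. Their summed level was 158 to 186 RPKM with sh64 at day 4 against 261 to 282 with shNT, and 166 to 183 with sh64 at day 12 against 251 to 255 with shNT. The MV4;11 sums were 223 to 240 with sh64 and 277 to 300 with sh65 against 260 to 361 with shNT. In MOLM13 with sh65 the sum was 229 to 338, against 170 to 353 in the second shNT set. Defining markers of T, B, erythroid, epithelial and fibroblast cells were at or near 0 RPKM, apart from CD3D (up to 12.2), COL1A1 (up to 2.76) and CD79A (up to 1.33). The T cell sum was 6.52 to 7.31 with sh64 and 9.52 to 11.1 with sh65 in MV4;11 against 2.43 to 3.72 with shNT, and 2.92 to 12.3 with sh65 in MOLM13 against 0.785 to 4.17 with shNT. All but CD3D were at 0.122 or less, and the part of these markers in the results was not tested.

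At day 12 the levels were most even between libraries. In sh64 cells ITGAL was highest at 160 ± 7.33 RPKM and ITGB2 followed at 134 ± 2.92 (SD, n = 3). ITGA4, ITGB1 and SELPLG lay between 19 and 13.7 RPKM, CEACAM4 and ITGAX at 9.29 and 8.37 with overlapping libraries, CD44 at 6.24 and ITGAM lowest at 4.71. In shNT cells ITGAL (203) and ITGB2 (107) also led, followed by ITGA4 (30.7) and ITGB1 (24.5). ITGAM (17), SELPLG (15.6) and ITGAX (15) came next and overlapped with their neighbours, then CD44 (8.39) and CEACAM4 (1.23). The change of order therefore lay mainly in ITGAM, which was above SELPLG in mean level in shNT cells and last in sh64 cells, and in CEACAM4, which was last in shNT cells.

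**Figure D1:**
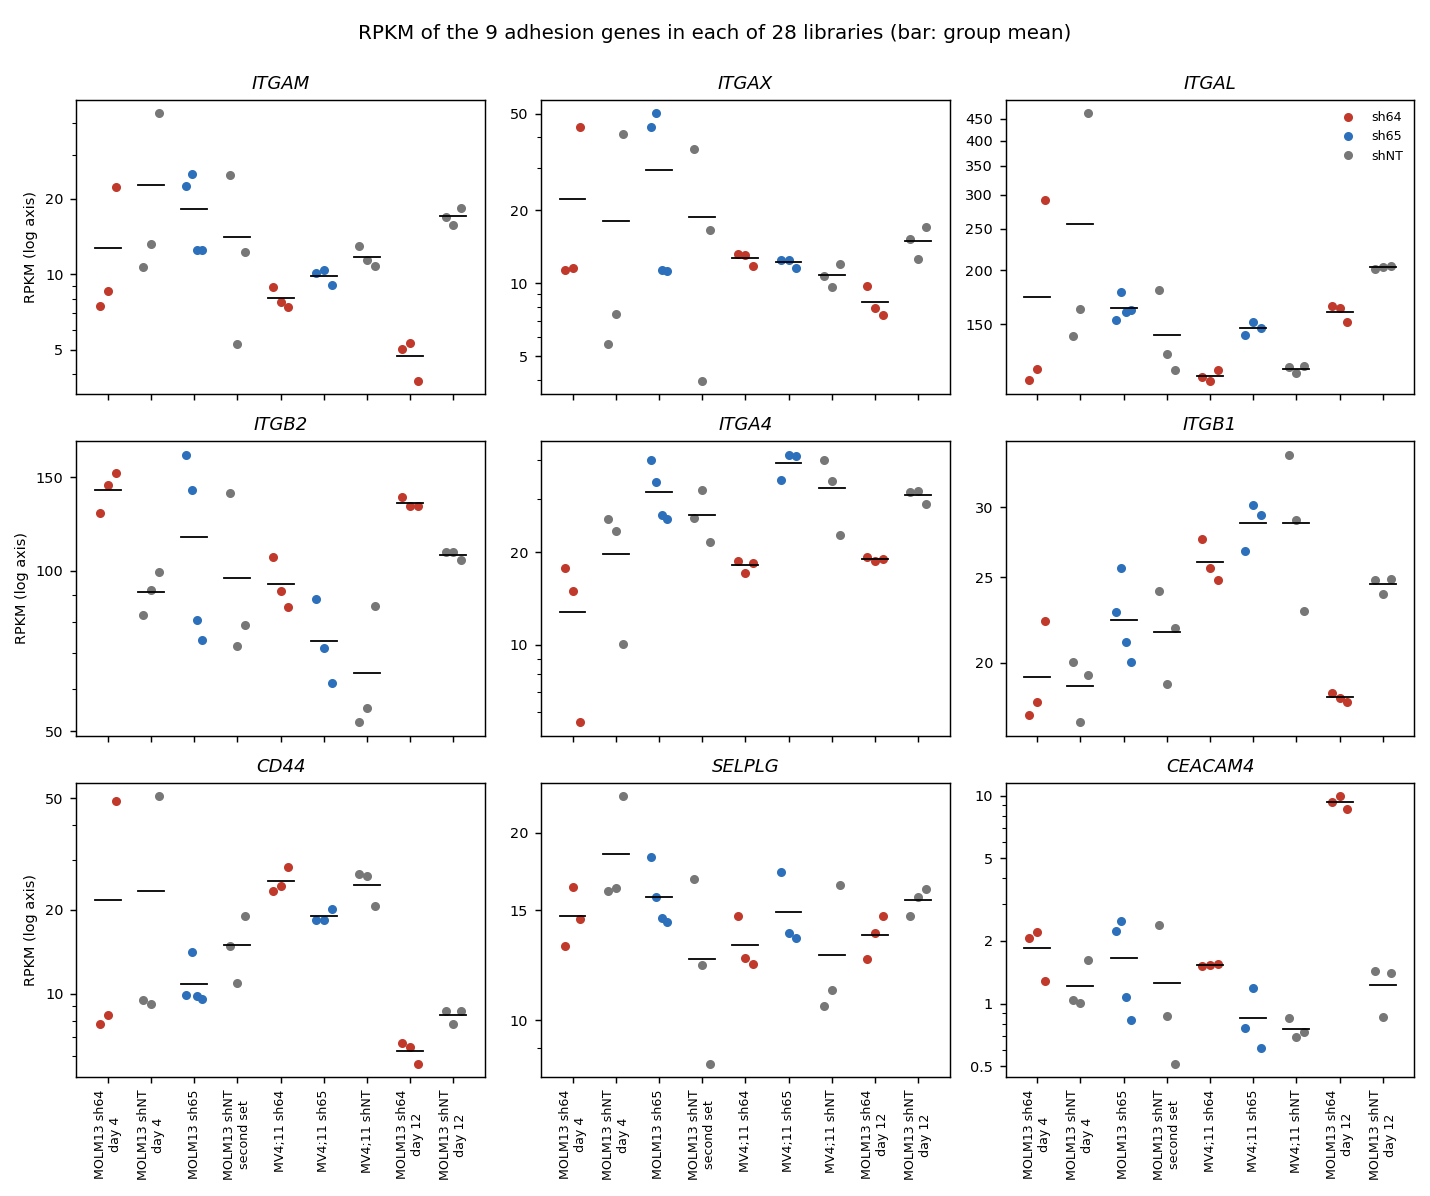
RPKM of the 9 genes in each of the 28 libraries on log axes, 1 panel per gene, with hairpin groups to the left of their shNT group; points are libraries and bars are group means. At day 12 ITGAM was 3.76 to 5.33 in sh64 libraries and 15.7 to 18.3 in shNT libraries, while CEACAM4 was 8.63 to 9.95 in sh64 libraries and 0.861 to 1.44 in shNT libraries.

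Expression was tested with limma on log2(RPKM + 1), and a change of at least 1.5-fold was called if its unadjusted p did not exceed 0.01; Benjamini-Hochberg adjusted p-values over all genes tested are given beside it. Fold changes on this scale understate those of low genes. With sh64 at day 12, 4 of the 9 genes were called, CEACAM4 higher and ITGAM, ITGAX and ITGA4 lower, against 5.52% of all 10094 genes tested. The same 4 had an adjusted p under 0.05 (all genes 5.55%). The groups did not overlap for 8 of the 9, SELPLG being the exception, against 59.6% of all genes. The 9 genes were chosen with earlier results of these data known, so these shares describe them and do not test them as a set. With sh64 in MV4;11, 1 of 9 was called (ITGA4, lower; all genes 6.51%), and with sh64 in MOLM13 at day 4 also 1 of 9 (ITGB2, higher; all genes 2.42%, limma adjusted p = 0.231). With sh65 limma called 0 of 9 in MOLM13 (all genes 3.24%) and 0 of the 8 that passed the filter in MV4;11 (all genes 3.63%). At an unadjusted p under 0.05 the numbers with sh65 were 0 in MOLM13 and 2 in MV4;11. No share of all genes at that threshold is given, so these numbers are not read as a result. With 3 libraries against 3, an exact permutation test of a single gene cannot go below p = 0.1, and with 4 against 3 not below 0.0286.

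**Figure D2:**
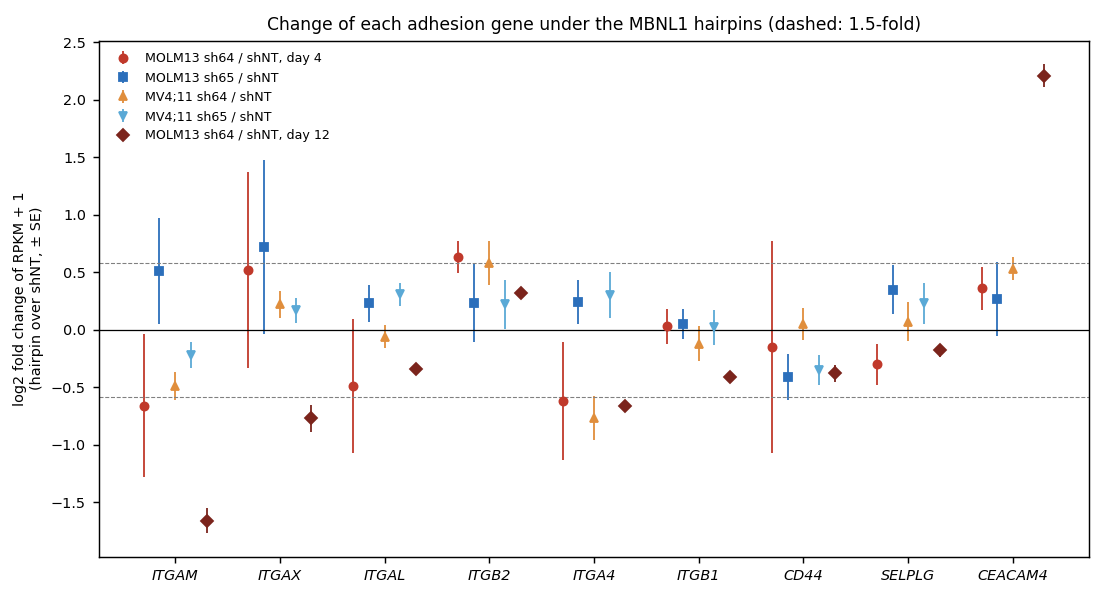
Log2 fold change (RPKM + 1) of the 9 genes over shNT in the 5 hairpin comparisons, with bars of 1 standard error from limma. ITGAM was at -1.66 and CEACAM4 at 2.21 at day 12; the bars are widest at day 4, where library 3 stood apart in both groups, and CEACAM4 with sh65 in MV4;11 was not tested.

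ITGAM encodes the alpha chain of Mac-1 and lies on chromosome 16 (31271288 to 31344213, plus strand). At day 12 its RPKM was 5.04, 5.33 and 3.76 in sh64 libraries, against 17, 15.7 and 18.3 in shNT libraries. The groups did not overlap, and the sh64 mean was 27.7% of shNT (log2 fold change -1.66, standard error 0.11, limma adjusted p = 2.13e-05). In bulk RNA fewer cells that express a gene and less RNA per cell cannot be told apart. In MV4;11 it was at 8.93, 7.72 and 7.43 RPKM with sh64 and at 10.2, 10.4 and 9.06 with sh65, against 12.9, 11.4 and 10.8 with the shared shNT libraries. Neither hairpin group overlapped with shNT, where 38.1% of all genes did not overlap with sh64 and 26.1% with sh65, and the changes were small: -0.49 with sh64 (limma adjusted p = 0.0425), under the 1.5-fold threshold, and -0.22 with sh65 (limma adjusted p = 0.291). In MOLM13 with sh65 the 4 libraries had 22.5, 25.2, 12.5 and 12.5 RPKM, against 24.9, 5.3 and 12.2 in the second shNT set. These overlapped widely, and the sign of the difference turned on library b of the shNT set, without which it was -0.02.

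At day 4 ITGAM was at 7.49, 8.59 and 22.3 RPKM with sh64, against 10.7, 13.3 and 43.9 with shNT. Library 3 was high in both groups, and the groups overlapped (log2 fold change -0.66, standard error 0.62, limma adjusted p = 0.775). Same-numbered day-4 libraries deviated together from their group means (r = 0.848, 0.799 and 0.882 across genes, which are not independent replicates). Library 3 stood apart in both groups, which by itself raises all of these r values. Each library had its highest r with its own number, and the numbers were taken to pair the samples. Within pairs ITGAM with sh64 was 70.0%, 64.8% and 50.8% of its shNT partner. With the replicate number as a block limma called ITGAM lower (-0.66, standard error 0.11, adjusted p = 0.0168). In that blocked fit 3 of the 9 genes were called, ITGAM, ITGA4 and ITGB2, against 7.09% of all genes.

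**Figure D3:**
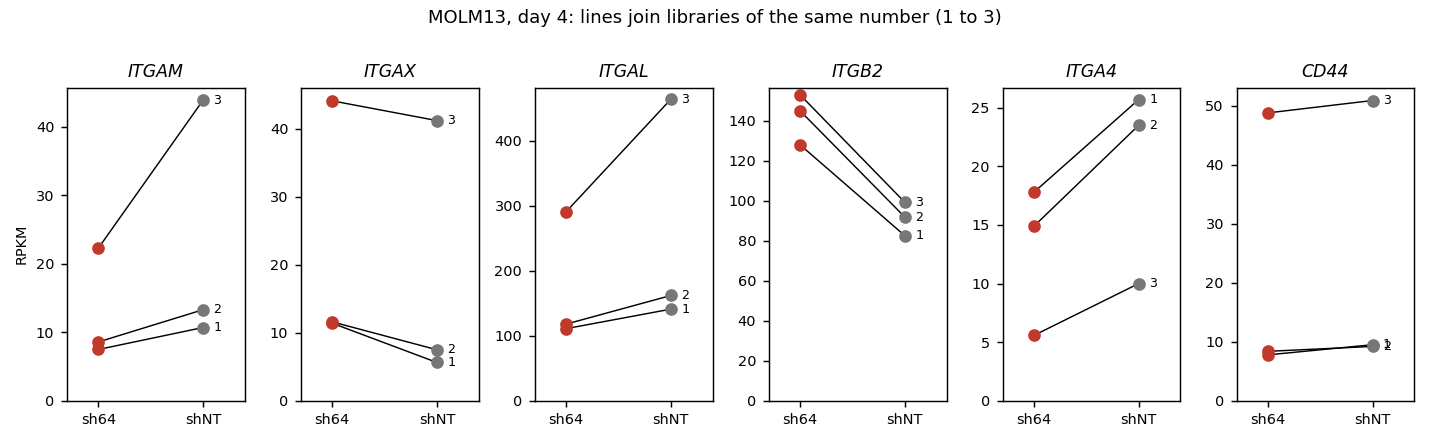
RPKM of 6 of the 9 genes in the day-4 MOLM13 libraries on linear axes that start at 0, with sh64 left of shNT and lines joining same-numbered libraries. In all 3 pairs the sh64 library is below its shNT partner for ITGAM, ITGAL, ITGA4 and CD44 and above it for ITGAX and ITGB2.

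ITGAX, the CD11c chain, is a paralog that lies next to ITGAM on chromosome 16 (31366455 to 31394320, plus strand). At day 12 its RPKM was 9.73, 7.95 and 7.43 with sh64, against 15.2, 12.6 and 17.2 with shNT. Every sh64 library lay below every shNT library (log2 fold change -0.77, standard error 0.12, limma adjusted p = 0.00128). At day 4 it was 11.4, 11.6 and 44.1 with sh64 against 5.63, 7.5 and 41.2 with shNT, which is 202%, 154% and 107% of the paired shNT library. This rise within pairs was not called, at 0.52 with a limma adjusted p of 0.063 in the blocked fit. Without library 3 of both groups, a choice made after seeing the data, limma called ITGAX higher at 0.73 (adjusted p = 0.0148). In MV4;11 it was 11.7 to 13.3 RPKM with sh64 and 11.6 to 12.5 with sh65, against 9.68 to 12.0 with shNT, and all ranges overlapped. With sh65 in MOLM13 it ranged over 11.2 to 50.4 RPKM, against 3.96 to 35.7 in the second shNT set, again overlapping.

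The sh64 effect of day 12 was set against that of day 4 as an interaction. The difference was -1.0 for ITGAM (limma adjusted p = 1) and -1.29 for ITGAX (limma adjusted p = 1), without the block. With replicate numbers as a block at both days limma called both (adjusted p = 0.0443 for ITGAM and 0.0437 for ITGAX), although the numbers did not pair the day-12 samples. The blocked fit called 3 of the 9 genes, against 1.54% of all genes. With no block, leaving out 1 library at a time gave -1.60 to -0.55 for ITGAM and -2.12 to -0.67 for ITGAX. The largest values, which were called, came without library 3 of the day-4 shNT set, and the smallest without library 3 of the day-4 sh64 set. ITGB2 (-0.31) and ITGB1 (-0.43) were under the threshold in either fit.

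ITGAL, the LFA-1 alpha chain, and ITGB2, the shared beta chain, were the most abundant of the set. ITGB2 at day 4 was 128, 145 and 153 RPKM with sh64, against 82.6, 91.9 and 99.3 with shNT. It was 154% to 158% of shNT in the 3 pairs (log2 fold change 0.63, standard error 0.14, limma adjusted p = 0.231; blocked adjusted p = 0.00781). Leaving out sh64 library 2 or 3 or shNT library 1 or 2 ended the unblocked call, with values of 0.56 to 0.64. At day 12 it was 138, 133 and 133 RPKM with sh64 against 108, 109 and 105 with shNT, a small difference with no overlap (0.32, limma adjusted p = 0.000467) that stayed under 1.5-fold. In MV4;11 it was 106, 91.7 and 85.5 RPKM with sh64 and 88.5, 71.7 and 61.6 with sh65, against 52.0, 55.2 and 85.9 with shNT, where shNT library 3 reached the hairpin range. The sh64 value was 0.58 and not called (limma adjusted p = 0.0883). Leaving out 1 library at a time gave 0.45 to 0.80, called only without shNT library 3. ITGB2 overlaps the antisense gene ITGB2-AS1, and no source used here states whether the authors' counting used strand.

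ITGAL at day 4 was 111, 118 and 291 RPKM with sh64, against 141, 162 and 464 with shNT, and 62.6% to 78.7% of shNT within pairs. The blocked value was -0.49 (limma adjusted p = 0.0189), under 1.5-fold. At day 12 it was 152 to 165 RPKM with sh64 against 201 to 204 with shNT, without overlap and under 1.5-fold (-0.34, limma adjusted p = 0.000632). In MV4;11 it was 111 to 117 RPKM with sh64 and 142 to 152 with sh65, against 116 to 120 with shNT. The hairpins thus lay apart in that line, at -0.37 for sh64 against sh65 (limma adjusted p = 0.00509).

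ITGA4, the alpha chain of VLA-4, lies on chromosome 2 (182321929 to 182403667, plus strand) and overlaps CERKL on the opposite strand. At day 12 its RPKM was 19.3, 18.7 and 19.1 with sh64, against 31.6, 31.8 and 28.7 with shNT. The groups were far apart relative to their spread (log2 fold change -0.66, standard error 0.05, limma adjusted p = 4.16e-05). At day 4 it was 17.8, 14.9 and 5.58 with sh64, against 25.7, 23.5 and 10.0 with shNT, and 69.1%, 63.6% and 55.7% of shNT within pairs. Library 3 was low in both groups, and the fall of 0.62 on the log2 scale was called with the block (limma adjusted p = 0.00964) and not without it (adjusted p = 0.748). In MV4;11 it was 18.8, 17.2 and 18.5 RPKM with sh64, against 40.0, 34.3 and 22.8 with shNT, and the lowest shNT library lay above all sh64 libraries (-0.77, standard error 0.19, limma adjusted p = 0.0481). Leaving out any 1 of the sh64 libraries or shNT library 2 ended that call, with values of -0.71 to -0.79.

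ITGA4 did not follow sh64 under the other hairpin. With sh65 it was 34.4, 41.8 and 41.2 RPKM in MV4;11, against the same shNT libraries (0.30, limma adjusted p = 0.416), and 40.0, 34.0, 26.6 and 25.8 in MOLM13 against 25.9, 32.1 and 21.6 with shNT (0.24, limma adjusted p = 0.536). Set directly against each other in MV4;11, sh64 was lower than sh65 by a log2 fold change of -1.06 (standard error 0.09, limma adjusted p = 0.000172). It was the only 1 of the 9 genes called in that comparison, against 3.38% of all genes. MBNL1 itself was lower with sh64 than with sh65, and hairpin and degree of knockdown cannot be told apart here.

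ITGB1, the VLA-4 beta chain, moved little. At day 12 it was 18.1 to 18.5 RPKM with sh64, against 23.9 to 24.9 with shNT, with no overlap but under 1.5-fold (-0.41, limma adjusted p = 0.000129). At day 4 it was 17.4 to 22.3 RPKM with sh64 and 17.1 to 20 with shNT. In MV4;11 the ranges were 24.8 to 27.6 with sh64 and 26.7 to 30.2 with sh65, against 22.9 to 34.4 with shNT, and in MOLM13 20 to 25.6 with sh65 against 18.9 to 24.1 with shNT. All 4 of these comparisons overlapped.

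CD44 expression was not called with any hairpin. At day 12 it was 6.64, 6.44 and 5.63 RPKM with sh64, against 8.65, 7.8 and 8.7 with shNT (-0.38, limma adjusted p = 0.00234, under 1.5-fold). At day 4 library 3 was at 48.8 RPKM with sh64 and at 50.9 with shNT, where the others were 7.78 and 8.38 with sh64 and 9.5 and 9.21 with shNT. Each sh64 library was 81.8% to 95.8% of its shNT partner. In MV4;11 sh65 was lowest, at 18.3 to 20 RPKM, sh64 was at 23.2 to 28.5, and shNT was at 20.5 to 26.8. The sh65 group did not overlap with shNT (-0.35, limma adjusted p = 0.178), and sh64 against sh65 was 0.40 (limma adjusted p = 0.0128), both under 1.5-fold. In MOLM13 with sh65 it was 9.57 to 14.1 RPKM, against 10.9 to 19 with shNT. Between the lines, CD44 was higher in MV4;11 shNT than in the second MOLM13 shNT set (0.71, limma adjusted p = 0.0647), the only 1 of the 9 called, against 14.2% of all genes. Leaving out MV4;11 library 1 or 2 or MOLM13 library a or b ended that call, with values of 0.51 to 0.72.

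SELPLG, the P-selectin ligand, was steady. Its group means lay between 12.6 and 18.5 RPKM and its 28 libraries between 8.51 and 22.9. At day 12 it was 12.5, 13.8 and 14.7 RPKM with sh64 against 14.7, 15.8 and 16.3 with shNT, so that the highest sh64 and the lowest shNT library were level (-0.18, limma adjusted p = 0.0521). No comparison with a hairpin was called.

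CEACAM4 lies on chromosome 19 (42125388 to 42133442, minus strand) and was the lowest of the 9 genes in every shNT group. At day 12 it was 9.28, 9.95 and 8.63 RPKM with sh64, which came from 545, 662 and 374 reads, against 1.44, 0.861 and 1.4 with shNT from 63, 45 and 75 reads. The lowest sh64 library was several times above the highest shNT library, and the mean was 753% of shNT (log2 fold change 2.21, standard error 0.10, limma adjusted p = 6.42e-06). At day 4 it was 2.06, 2.22 and 1.29 RPKM with sh64 (90, 65 and 23 reads) against 1.04, 1.0 and 1.62 with shNT (43, 27 and 34 reads), not called with or without the block. The sh64 effect was larger at day 12 than at day 4 by 1.85 on the log2 scale (standard error 0.23, limma adjusted p = 0.0253), the only 1 of the 9 genes called in that interaction, against 0.397% of all genes. It remained at 1.70 to 1.95 when any 1 library was left out.

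In MV4;11 CEACAM4 was 1.51, 1.53 and 1.54 RPKM with sh64 (62, 57 and 59 reads), against 0.855, 0.689 and 0.728 with shNT (26, 27 and 24 reads). That is 202% of shNT with no overlap, but on the log2(RPKM + 1) scale it was 0.53 (limma adjusted p = 0.0287), under the threshold; with 0.1 added in place of 1 it was 0.93 and called. With sh65 it was 0.763, 1.18 and 0.609 RPKM in MV4;11 and did not pass the minimum of 1 RPKM. In MOLM13 with sh65 it was 2.24, 2.49, 1.08 and 0.832 RPKM against 2.38, 0.876 and 0.515 with shNT, spreading alike in both groups. Between lines the sh64 effects at day 4 in MOLM13 and in MV4;11 were also compared, and limma called 0 of the 9 genes (all genes 0.653%), with 0 also at an unadjusted p under 0.05.

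Some other maturation genes were higher at day 12, where ITGAM was lower. Of a list of 28 myeloid maturation genes 16 were tested, 9 were called higher (all genes 3.27%) and 0 lower, with a median log2 fold change of 0.85 against 0.04 over all genes. The list and its direction were known from earlier results of these data. LYZ, lysozyme, was at 3640 to 3910 RPKM with sh64 against 731 to 883 with shNT. CYBB, the catalytic subunit of the phagocyte oxidase, was at 21.8 to 24.6 with sh64 against 2.3 to 3.21 with shNT. S100A9, a calprotectin subunit, was at 35.7 in mean with sh64 against 4.71 with shNT. FCGR1A, a receptor for IgG, was at 25.5 in mean with sh64 against 13.7 with shNT. The 7 tested genes that were not called had log2 fold changes of -0.32 to 0.16. At day 4 limma called 3 of 17 higher (CYBB, LYZ and FCGR1A; all genes 1.33%), and 7 of 17 with the block (all genes 3.81%). With sh64 in MV4;11 the list split, with CSF1R and S100A8 higher (all genes 3.89%) and MNDA and LYZ lower (all genes 2.62%). With sh65 in MV4;11 0 were called higher and 5 of 16 lower (all genes 1.85%; median -0.22 against 0.06), and with sh65 in MOLM13 limma called 0 of 17 (median 0.09 against 0.05). ITGAM and ITGAX were not members of this list.

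**Figure D4:**
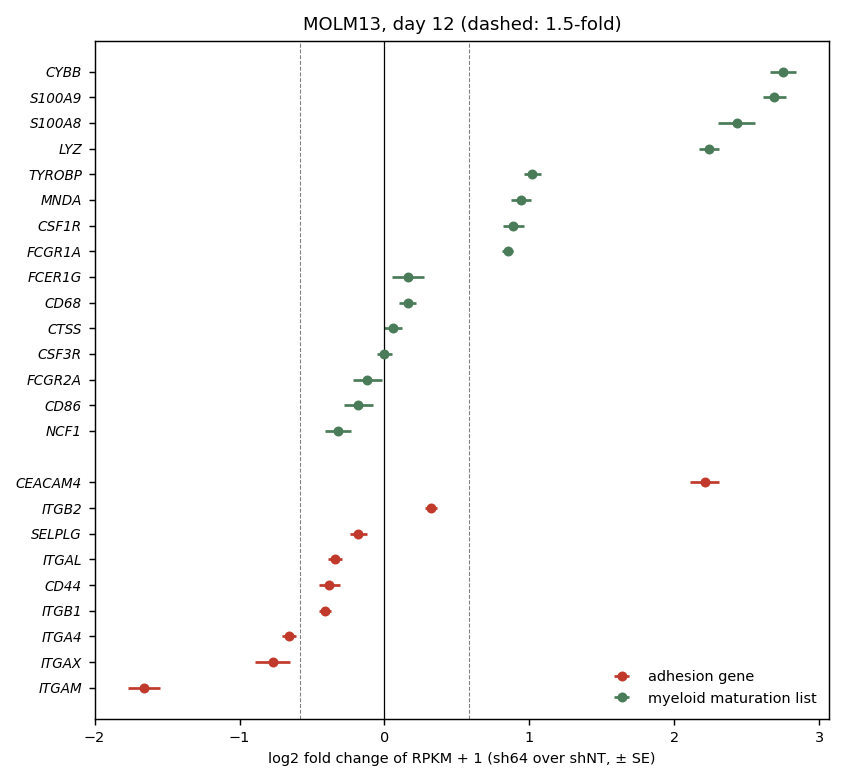
Log2 fold change (RPKM + 1) at day 12, sh64 over shNT, of the 9 adhesion genes beside 15 of the 16 tested myeloid maturation genes, with bars of 1 standard error from limma. At one end 4 maturation genes (2.24 to 2.75) stand with CEACAM4 (2.21), and ITGAM (-1.66) stands at the other.

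Partners of the adhesion receptors were read from lists of related genes. Among 8 tested CD44 partners, EZR, which encodes ezrin and links CD44 to actin, was called lower in 4 of the 5 comparisons. Its mean was 30.4 RPKM with sh65 against 56.5 with shNT in MOLM13 (log2 fold change -0.90, limma adjusted p = 0.143). In MV4;11 it was 16.4 with sh64 and 16.2 with sh65 against 25.6 with shNT (-0.61 and -0.63, limma adjusted p = 0.0293 and 0.0335). At day 12 it was 32.1 with sh64 against 55.2 with shNT (-0.76, limma adjusted p = 2.98e-05). At day 4 EZR (-0.62), HMMR (-0.61) and CD74 (-1.30) were called lower with the block and not without it. Their limma adjusted p with the block was 0.01, 0.0264 and 0.0242. That was 3 of 8 called lower, against 3.28% of all genes. In each of the other 4 comparisons 2 of 8 were called lower. All genes lower came to 1.48% (sh65, MOLM13), 2.62% (sh64, MV4;11), 1.85% (sh65, MV4;11) and 2.25% (day 12). HMMR, another hyaluronan receptor, was called lower with sh65 in MOLM13 (-1.02, limma adjusted p = 0.158). It was also called lower with sh64 (-0.65, limma adjusted p = 0.0689) and sh65 (-0.88, limma adjusted p = 0.0615) in MV4;11, but was at 0.08 at day 12. CD74, which signals through CD44, was lower at day 12, at 28 RPKM with sh64 against 59.8 with shNT (-1.08, limma adjusted p = 4.22e-05).

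Of 15 tested genes of integrin activation 2 were called lower at day 12 (all genes 2.25%) and 0 higher. PTK2, focal adhesion kinase, was at 1.20 RPKM with sh64 against 4.28 with shNT (-1.27, limma adjusted p = 3.88e-05), and PXN, paxillin, at 1.12 with sh64 against 2.51 with shNT (-0.73). PXN was not called elsewhere, at -0.11 at day 4, 0.09 with sh65 in MOLM13, and 0.34 with sh64 and 0.18 with sh65 in MV4;11. At day 4 PTK2 was called lower with the block alone (-0.77, limma adjusted p = 0.00935), 1 of 15 against 3.28% of all genes. PTK2 was also lower with sh64 in MV4;11 (-0.62, limma adjusted p = 0.0324), 1 of 15 against 2.62% of all genes. FERMT3, the kindlin of blood cells, was higher there, at 61.8 RPKM with sh64 against 35.6 with shNT (0.81, limma adjusted p = 0.0343). It was also 1 of 15 (all genes 3.89%). Among 8 tested ligands and selectins ICAM1, a ligand of LFA-1 and Mac-1, was lower at day 12 (1.89 RPKM with sh64 against 4.31 with shNT, -0.88, limma adjusted p = 2.6e-05). That was 1 of 8 called lower, against 2.25% of all genes. ICAM2 was lower at day 4 (3.13 with sh64 against 5.54 with shNT, -0.68, limma adjusted p = 0.293, and 0.0133 with the block). It was 1 of 8 called lower in either fit, against 1.09% of all genes without the block and 3.28% with it. Among 7 tested genes of the PSGL-1 glycosylation list ST3GAL6, a sialyltransferase, was higher at day 12 (4.66 RPKM with sh64 against 2.70 with shNT, 0.62, limma adjusted p = 0.000874). That was 1 of 7, against 3.27% of all genes. ST3GAL6 was not called elsewhere, at 0.51 at day 4, -0.09 with sh65 in MOLM13, and -0.31 with sh64 and -0.44 with sh65 in MV4;11.

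Of the other integrin subunits 1 of 7 tested was called higher with sh65 in MOLM13 (all genes 1.76%) and 2 of 6 in MV4;11 (all genes 1.78%), and limma called 0 with sh64 in any of the 3 comparisons. ITGA5, the fibronectin receptor alpha chain, was at 135 RPKM with sh65 against 79.4 with shNT in MOLM13 (0.76, limma adjusted p = 0.143) and at 103 with sh65 against 62.6 with shNT in MV4;11 (0.71, adjusted p = 0.0268). ITGA7, a laminin receptor alpha chain, was the other in MV4;11, at 30.6 RPKM with sh65 against 20.3 with shNT (0.59, limma adjusted p = 0.0979). ITGA5 with sh64 in MV4;11 was at 84.9 RPKM, against 62.6 in the same shNT libraries (0.43, limma adjusted p = 0.0372), under 1.5-fold. Of the other CEACAM genes 7 were in the file, and the 1 that was tested was not called in any hairpin comparison.

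Genes whose group means followed each member most closely were found by Pearson's r over the 9 groups, among 3114 or 3115 genes, as a description. Groups share libraries' depth, line and sequencing run, so no test was made. CEACAM4 was followed most closely by TLR4, a receptor for bacterial lipopolysaccharide (r = 0.96), ITGAM by CLDND1 and IRAG2 (both 0.895) and RAC2 (0.883), and ITGA4 by BRCC3 (0.963). ITGAL was followed by RTL8C (0.952), ITGB2 by TSPYL4 (0.971), CD44 by H2AC6 (0.97) and ITGAX less closely by CD300A (0.83). For SELPLG all of the 5 closest were GOLGA8 genes, a multi-copy family whose reads can be split between copies.

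Splicing was deposited as PSI, the share of local junction reads that support a junction, given here in percent. A difference of more than 10 percentage points was called if its unadjusted limma p did not exceed 0.01, in events measured in over 50% of the libraries of each group. Where an event was called, it was the CD44 junction. This was 1 of 68 tested at day 12 (all events 2.34%), 1 of 65 with sh64 (1.64%) and 1 of 65 with sh65 (0.866%) in MV4;11, 1 of 64 with sh65 in MOLM13 (1.28%) and 0 of 66 with sh64 at day 4 (1.73%). No share of all events at an unadjusted p under 0.05 is given, so member numbers at that threshold are not read as a result. They were 3, 3, 5, 6 and 5 in the same order. By an adjusted p under 0.05 limma called 0 member events in each, where all events came to 0.782%, 0.278%, 0.0188%, 0.0265% and 0.269%.

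The standard junction of CD44, shown above, had a PSI of 87.0%, 87.5% and 82.2% with sh64 at day 12, against 71.9%, 72.4% and 74.5% with shNT. The difference was 12.6 points (limma adjusted p = 0.0836). In MV4;11 it was 76.0%, 77.3% and 79.5% with sh64 and 75.2%, 80.7% and 78.8% with sh65, against 61.4%, 66.3% and 67.4% with shNT. Both hairpins were above every shNT library, by 12.5 points (limma adjusted p = 0.187) with sh64 and 13.2 points (limma adjusted p = 0.38) with sh65. In MOLM13 with sh65 it was 86.3%, 84.1%, 83.2% and 87.8%, against 76.1%, 73.5% and 63.0% with shNT (14.5 points, limma adjusted p = 0.395). At day 4 it was 85.3%, 86.8% and 80.9% with sh64, against 78.2%, 73.1% and 64.2% with shNT, a difference of 12.5 points that was not called with or without the block (limma adjusted p = 0.461 with it and 0.589 without). A 2-sided exact permutation test of this junction gave p = 0.0286 for sh65 in MOLM13 and p = 0.1 for each of the other 4, the smallest values these group sizes allow.

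The CD44 groups did not overlap in 5 of 5 comparisons, where 6.93% (day 12), 5.61% (sh64, MV4;11), 4.74% (sh65, MV4;11), 4.06% (sh65, MOLM13) and 5.77% (day 4) of all events lay wholly higher. The 10 MOLM13 hairpin libraries spanned 80.9% to 87.8% and the 9 shNT libraries 63.0% to 78.2%, and in MV4;11 the 6 hairpin libraries spanned 75.2% to 80.7% and the 3 shNT libraries 61.4% to 67.4%. The MV4;11 comparisons share their controls. Leaving out 1 library at a time kept the difference between 8.64 and 17.1 points in all 5 comparisons, but the p passed 0.01 without any 1 of the sh65 libraries or shNT library b in MOLM13 (13.7 to 15.8 points), without sh64 library 2 or 3 in MV4;11 (12.7 and 11.6 points), and without sh65 library 2 or 3 or shNT library 2 there (12.0 to 13.8 points). With the first MOLM13 shNT set as control for sh65 the difference was 13.5 points and was not called. The event lists the junction of the last variable exon as the main junction competing with the standard one. Whether junctions of other variable exons also entered the share was not tested. Total CD44 RNA was not called in any of these comparisons.

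**Figure D5:**
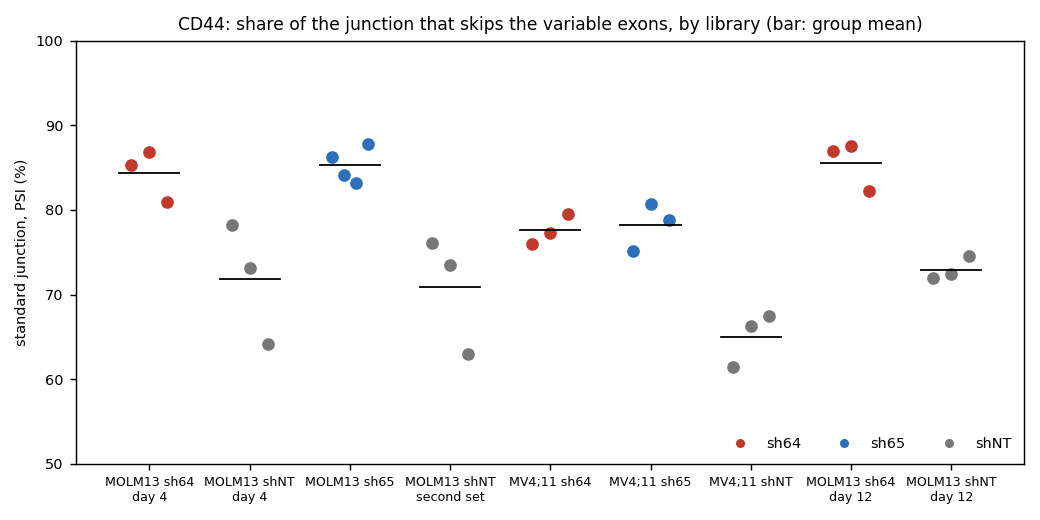
PSI in percent of the CD44 standard junction, with the last variable junction as its listed competitor, in each library by group. Hairpin groups are left of shNT, points are libraries and bars are group means. Hairpin libraries lie at 80.9% to 87.8% in MOLM13 and 75.2% to 80.7% in MV4;11, above all shNT libraries of the same line (63.0% to 78.2% and 61.4% to 67.4%).

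The remaining events were not called. In ITGAL the acceptor pair shown above split 64.0% to 33.4% in median, and the 28 libraries stayed within 58.9% to 68.2% for one site and 29.2% to 38.2% for the other. In ITGAM the pair ranged more widely, over 30% to 76.2% and 10.7% to 53.3%, and its largest difference was 14.3 points with sh65 in MOLM13, not called. The other 16 ITGAM events were all measured against 1 junction joining ITGAM to ITGAX, so they are not separate measurements. ITGA4, ITGB1 and ITGB2 events (13, 10 and 3) had means under 5% or over 95%, and ITGAX had 17 events, with a largest difference of -28.8 points (sh64 in MV4;11), not called.

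SELPLG had a pair of junctions inside the coding sequence that skip 30 or 90 bases of a repeat. The skipped stretch is shown because both junctions start with gc and end with ag and fall on repeat units of 30 bases, 3 in number here, which are 76.7% to 83.3% identical. In the line below, minus strand of GRCh37, capitals mark the bases that the shorter junction skips.
SELPLG skipped stretch, chr12:109017604-109017693: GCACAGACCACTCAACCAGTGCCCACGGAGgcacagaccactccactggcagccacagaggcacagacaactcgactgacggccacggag
The junctions made up 68.0% to 78.9% and 17.3% to 29.8% of reads in the 28 libraries, with no called difference. The number of such repeats is known to differ between genomes, and whether these reads come from splicing or from repeat length was not tested.

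CEACAM4 had 6 events, none measured in all 28 libraries, and its reads were few. Its last measured intron was seen in 8 libraries only. The spliced junction made up 54.4%, 44.1% and 35.9% with sh64 at day 12, where the shNT libraries gave no value, and 88.9% to 100% in the 5 other MOLM13 libraries. No comparison could be tested there.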

How the data were processed

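RNA from 28 libraries of MOLM13 and MV4;11 cells was sequenced by the authors as stranded paired-end reads. Per the submitters' processing notes and the study's methods, reads were aligned with STAR to hg19 (GRCh37), and genes and junctions were quantified with AltAnalyze. No source used here states whether counting used strand. The authors deposited expression as RPKM per gene and library. The authors gave splicing as PSI, a fraction of the junction reads at a splice choice. Both were used as deposited, with replicates not pooled. A deposited column of PSI differences was not used, and there were 0 other columns of per-sample values. Deposited files gave no total counts, so relative depth and reads per gene were recovered from the steps of low RPKM values.

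Groups were taken from the labels. The second MOLM13 shNT set served sh65, and its columns carry no numbers. Tests were run with limma 3.58.1 under R 4.3.3 on log2(RPKM + 1), over genes whose mean RPKM reached 1 in one of the groups, and on PSI, with Benjamini-Hochberg adjustment over all genes or events. Each fit held only the groups compared, without a block. Code was tested on simulated data. The members and the gene lists were chosen with earlier results of these data known. Named were all 9 members, MBNL1 and every called member event. Other names were drawn from up to 4 called genes per list and comparison by p, and from the 5 genes most like each member. Not all of those genes are named.

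Replicate numbers in the labels were checked for pairing. Day-4 libraries with the same number deviated together (r = 0.848, 0.799 and 0.882), while in MV4;11 and at day 12 r was between -0.645 and 0.069. Alternatives were another pseudocount, no low-value filter, median centring, all libraries in 1 fit, adjusted p, other shNT sets, stricter PSI rules, a replicate block and leaving out each library. The values of 1 gene of the maturation list are not reported here. Lists of marker genes for other cell types are reported as summed RPKM. Of the 22391 genes 21587 had a symbol in the annotation. Sequences are from the GRCh37 genome and GENCODE annotation. Other software was Python 3.11.15, numpy 2.4.6, pandas 2.3.3 and matplotlib 3.10.9.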

Additional observations from a re-analysis of the deposited data

Results flagged for a closer look

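CD44 in the MOLM13 sh65 group had 1 library far from the other 3, at 14.1 RPKM against 9.57 to 9.92. The gap took up 0.923 of the group's range, above Dixon's critical value for 4 libraries. Chance gives about 1 such gap in 20 groups, and 9 genes were examined in this group, the only one of 4 libraries.

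The sh64 effect in MOLM13 differed between day 12 and day 4 for CEACAM4, by 1.85 on the log2 scale (limma adjusted p = 0.0253). With replicate numbers as a block it also differed for ITGAM, by -1.0 (limma adjusted p = 0.0443), and for ITGAX, by -1.29 (limma adjusted p = 0.0437). ITGAX was higher with sh64 in all 3 day-4 pairs and lower in all 3 day-12 libraries, while ITGAM was lower at both days. Day and sequencing run cannot be told apart in these differences.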

How the results depend on the processing

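Of the member changes, those of ITGAM and CEACAM4 at day 12 were called under every alternative run for them, and those of ITGAX and ITGA4 at day 12 under all but the single fit of 28 libraries, which left 2 of the 4 calls. That fit gave 0 members called at day 4, 0 with sh64 in MV4;11 and 0 between the shNT groups of the lines. A pseudocount of 0.1 gave 2 members with sh64 in MV4;11, 2 for sh64 against sh65 there and 0 between lines. No filter on low values gave 0 with sh64 in MV4;11 and 0 between lines. An adjusted p under 0.05 left 0 at day 4 and 0 between lines, and the first MOLM13 shNT set gave 0 between lines. With the replicate block, which reflects pairing at day 4 only, 3 members were called at day 4 and 3 in the interaction of day 12 with day 4, and at day 12 the CD44 junction was no longer called while 1 ITGAM event was; elsewhere the block left the counts of member calls as they were. Leaving out both day-4 libraries numbered 3, chosen after seeing the data, gave 3 members (ITGAX, ITGB2 and CEACAM4), 2 ITGAX splicing events and ITGB1 at -0.06. For splicing, a difference over 0.2 (20 percentage points) left 0 events with sh65 in MOLM13, 0 with sh64 and 0 with sh65 in MV4;11 and 0 at day 12, and an adjusted p under 0.05 likewise left 0, 0, 0 and 0. Small uncalled values changed sign. Median centring put ITGB1 with sh65 at -0.03 in MOLM13 and -0.06 in MV4;11. The first shNT set put ITGAM at -0.10, ITGAL at -0.43 and SELPLG at -0.20 with sh65 in MOLM13, and both sets together put ITGAL at -0.10; with the first set the CD44 junction, at 13.5 points, was not called and 1 ITGAM event was. Leaving out 1 library at a time gave 0 to 1 members at day 4, 0 to 2 with sh64 in MV4;11, 1 to 2 for sh64 against sh65, 0 to 1 between lines and 1 to 3 in the interaction. It gave 0 to 2 splicing events with sh65 in MOLM13, 0 to 2 with sh64 and 0 to 1 with sh65 in MV4;11, and 1 to 3 at day 12. Log2 fold changes that reversed ranged, at day 4, over -0.97 to 0.63 (CD44), -0.94 to 0.05 (ITGAL), -0.10 to 1.35 (ITGAX) and -0.08 to 0.09 (ITGB1). With sh65 in MOLM13 they ranged over -0.02 to 1.01 (ITGAM), -0.06 to 1.38 (ITGAX) and -0.04 to 0.13 (ITGB1). In MV4;11 they ranged over -0.07 to 0.11 (CD44), -0.27 to 0.01 (ITGB1) and -0.04 to 0.26 (SELPLG) with sh64, and -0.13 to 0.15 (ITGB1) with sh65. The causes were not tested. Depth limits CEACAM4 most, at 12 to 115 reads in the libraries other than sh64 at day 12.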
